A study of Mus musculus with 9 samples.

Results

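Lcn2 and a panel of known kidney epithelial injury markers (Havcr1, Spp1, Cd44, Sox9, Anxa2 and S100a6) were followed in podocytes of diabetic and normal mice. The members are the probe sets whose platform gene symbol is exactly one of these 7 names. This gave 14 probe sets of 6 genes, out of 45037 probe sets and 18193 named genes on the arrays. No probe set carried the symbol Spp1, and Spp1 is not analysed here. Lcn2 was chosen by its measured rise in OVE26 over FVB on these same arrays, so its levels are given as a description with no test. The others were picked as known markers, with earlier results of these data known.

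The diabetic group held 5 OVE26 mice, labelled OVE-GFP, and the normal group held 4 FVB mice, labelled wild type, all of the FVB background and aged 3 to 4 months. OVE26 mice become diabetic early in life because of a calmodulin transgene in pancreatic beta cells. Podocytes, the cells that wrap the glomerular capillaries, were sorted by green fluorescence from trypsin-digested glomeruli of mice with a podocyte eGFP reporter. The sources used here name no promoter for that reporter. They also do not say whether the normal mice carried it, since their label names no reporter. Each mouse gave 1 sort and 1 array.

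Levels are given as log2 intensity per probe set, and a difference is OVE26 minus FVB on that scale. The podocyte markers Podxl (12.95 to 13.13) and Nphs1 (11.06 to 12.17) were bright on all 9 arrays. Array medians lay between 5.07 and 5.15. The table holds no detection calls, so the 25th percentile of an array (3.31 on average) is used here as a stand-in for background. Xist was above the Y-linked genes on OVE26 2, 3 and 5 and on FVB 2 and below them on the other arrays, so the sexes were not balanced between the groups. The labels do not give sex. Group differences were tested with limma over all genes, 1 probe set a gene (the brightest), and a gene was called at a Benjamini-Hochberg adjusted p under 0.05. By that rule 0.605% of all genes were called in either direction, 0.473% higher and 0.132% lower in OVE26. At an unadjusted p under 0.05 there were 2748 genes, or 15.1%, and the unadjusted counts of the lists are to be read against that share.

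Injured kidney epithelium loses part of its mature programme and switches on a set of genes that are used as injury markers. Lcn2 (lipocalin 2, or NGAL) is a secreted protein that binds bacterial iron carriers and is driven by NF-kB, STAT3 and C/EBP factors in stressed epithelium, and neutrophils store it in granules. Havcr1 (KIM-1) is a phosphatidylserine receptor that injured proximal tubule cells place on their surface. Cd44 is the hyaluronan and osteopontin receptor that marks activated parietal epithelial cells. Sox9 is a transcription factor of tubule repair, Anxa2 a calcium-dependent membrane-binding protein, and S100a6 (calcyclin) a small calcium sensor of the S100 family.

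The sequences just upstream of 3 members are shown because these genes gave the largest rise, the only called rise and the smallest difference in the panel. They come from RefSeq (GRCm38.p6), run 5′ to 3′ on the gene's own strand, and end at the base before the annotated start. Capitals mark matches, on either strand, to a TATA box (TATAAA), a GC box (GGGCGG), AP-1 (TGANTCA), the NF-kB consensus, C/EBP (TTGCNNAA), STAT (TTCNNNGAA) or SOX (ACAATG). Lcn2 is the stretch chr2:32387740-32387989 on the minus strand, S100a6 is chr3:90612644-90612893 on the plus strand, and Anxa2 is chr9:69453433-69453682 on the plus strand.
Lcn2: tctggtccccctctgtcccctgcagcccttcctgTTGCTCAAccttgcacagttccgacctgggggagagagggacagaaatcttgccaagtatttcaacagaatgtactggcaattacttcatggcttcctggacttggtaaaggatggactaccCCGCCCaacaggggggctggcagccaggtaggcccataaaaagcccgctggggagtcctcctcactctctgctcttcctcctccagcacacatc
S100a6: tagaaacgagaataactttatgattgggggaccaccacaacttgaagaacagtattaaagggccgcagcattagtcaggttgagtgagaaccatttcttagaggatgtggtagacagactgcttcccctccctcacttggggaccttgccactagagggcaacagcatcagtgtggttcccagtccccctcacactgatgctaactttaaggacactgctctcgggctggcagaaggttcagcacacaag
Anxa2: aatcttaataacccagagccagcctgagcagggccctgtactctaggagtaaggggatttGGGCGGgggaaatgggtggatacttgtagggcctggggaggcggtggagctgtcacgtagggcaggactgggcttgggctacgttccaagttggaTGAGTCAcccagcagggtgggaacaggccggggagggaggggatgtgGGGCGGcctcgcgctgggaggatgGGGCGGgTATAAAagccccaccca

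In the 250 bases before Lcn2 these letters matched a C/EBP motif (TTGCTCAA, at -216 to -209 from the start) and a GC box. Such a C/EBP match is found in 9.56% of 32851 windows of this length over all genes, and a GC box in 32.7%. The Anxa2 window held 3 GC boxes, an AP-1 match (6.75% of all windows) and a TATA box (12.4%), and 0 of the motifs searched were in the S100a6 window. The NF-kB motif (17.6% of windows), the STAT letters (7.02%) and the SOX letters (10.7%) were in none of the 3. A match describes letters and not a binding site.

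Lcn2, the secreted lipocalin (gene at chr2:32384637-32387739 in GRCm38.p6), separated the groups by the widest gap of the panel. Its probe set read 6.53, 7.56, 8.07, 9.12 and 6.89 on OVE26 1 to 5 and 2.97, 3.42, 3.25 and 3.09 on FVB 1 to 4. The groups did not overlap, and the lowest OVE26 array lay above the highest FVB array. On the linear scale the OVE26 arrays spread from 92.6 to 557 intensity units, whereas the FVB arrays stayed between 7.85 and 10.7. The means were 7.63 ± 1.02 (SD, n = 5) and 3.18 ± 0.19 (SD, n = 4), a difference of 4.45 (SE 0.45). On 3 of 4 FVB arrays the signal was below the 25th percentile. With that percentile in place of lower FVB readings, Lcn2 was at least 19.6-fold higher in OVE26. Among mice with Xist above the Y-linked genes the difference was 4.09 (3 OVE26 mice against 1 FVB mouse). Among the others (2 against 3) all FVB readings were below the 25th percentile, and with that percentile in their place Lcn2 was at least 22.8-fold higher.

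**Figure D1:**
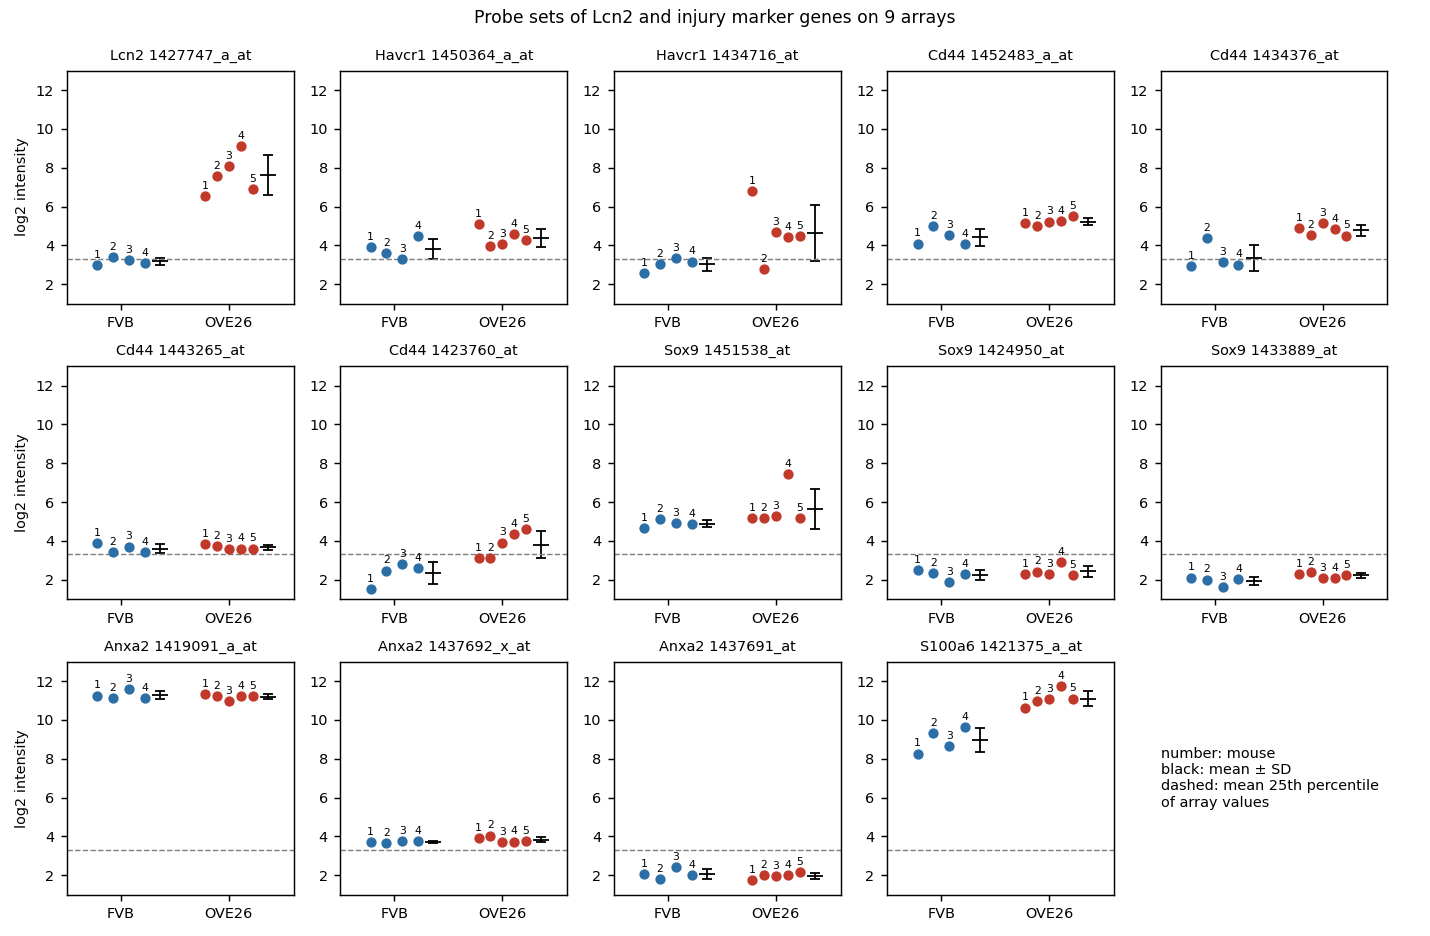
Log2 intensity of all 14 probe sets of Lcn2, Havcr1, Cd44, Sox9, Anxa2 and S100a6 on 4 FVB (blue) and 5 OVE26 (red) arrays, each point 1 mouse labelled with its number, with the mean ± SD in black and the mean 25th percentile of array values (3.31) dashed. Lcn2 and S100a6 show groups that lie far apart, Anxa2 1419091_a_at lies at the same height in both, and Sox9 1451538_at stands out on OVE26 4 alone.

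S100a6, the calcium sensor (gene at chr3:90612894-90614414), rose. It read 10.64, 10.96, 11.07, 11.76 and 11.09 on OVE26 1 to 5 and 8.26, 9.32, 8.67 and 9.63 on FVB 1 to 4. The groups did not overlap, FVB 1 and 3 being the lowest, and 3.64% of all genes likewise had each OVE26 array above each FVB array. The means were 11.10 ± 0.41 (SD, n = 5) and 8.97 ± 0.62 (SD, n = 4). S100a6 was 4.39-fold higher, a difference of 2.13 (SE 0.30, limma, adjusted p = 0.0220). It was the only gene called among the 5 tested markers, and the probe set was also called in the fit over all probe sets (adjusted p = 0.0326), where 0.271% of probe sets were.

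The size of the S100a6 difference stayed between 1.90 and 2.35 when any 1 array was left out, but its call did not always hold. It was lost without OVE26 3 (limma, adjusted p = 0.0537), OVE26 5 (0.0562), FVB 1 (0.0544) or FVB 3 (0.0824), and with a sex covariate (difference 2.11, adjusted p = 0.0515). Within the arrays with Xist above the Y-linked genes the difference was 1.72, and within the others it was 2.34.

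Havcr1, the phosphatidylserine receptor (gene at chr11:46739822-46779578), was not called, and its probe sets differed in how far they moved. The brighter one, 1450364_a_at, read 5.09, 3.96, 4.05, 4.57 and 4.26 on OVE26 1 to 5 and 3.93, 3.60, 3.28 and 4.48 on FVB 1 to 4. These ranges overlapped, and the difference of 0.56 had a 95% interval from -0.07 to 1.19 (limma, adjusted p = 0.392). The other, 1434716_at, read 6.80, 2.79, 4.70, 4.44 and 4.49 on OVE26 1 to 5 and 2.56, 3.06, 3.34 and 3.17 on FVB 1 to 4. Of these readings 3 FVB and 1 OVE26 were below the 25th percentile. Here 4 of 5 OVE26 arrays were above all FVB arrays, OVE26 1 was the highest and OVE26 2 fell inside the FVB range. Its difference was 1.61 (SE 0.63, limma over all probe sets, adjusted p = 0.294). OVE26 1 was the highest and OVE26 2 the lowest OVE26 array on both Havcr1 probe sets.

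OVE26 2 also held the least signal of proximal tubule markers, the segment known for Havcr1. The mean centred log2 value of 17 such genes was -1.89 there and between -0.18 and 0.75 on the other arrays. It was highest on OVE26 5 (0.75), followed by OVE26 3 (0.49), whereas OVE26 1, the highest OVE26 array for Havcr1, was at 0.35. Their summed intensity ran from 1860 to 11521 units in OVE26 and from 6790 to 12849 in FVB arrays, with 0 of 17 called. What part this has in the Havcr1 values was not tested.

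Cd44, the hyaluronan receptor (gene at chr2:102811141-102901669), was higher on most OVE26 arrays by 3 of its 4 probe sets, and none was called. The brightest, 1452483_a_at, read 5.15, 5.00, 5.22, 5.26 and 5.50 on OVE26 1 to 5 and 4.09, 5.00, 4.54 and 4.07 on FVB 1 to 4. FVB 2 equalled the lowest OVE26 array and the other FVB arrays were below all of them. The difference was 0.80 (SE 0.20, 95% interval 0.36 to 1.24, limma, adjusted p = 0.103). Without FVB 2 it was 0.99 and was called (limma, adjusted p = 0.0182), in a fit that called 285 genes higher, against 86 with all arrays. That was the only fit with 1 array left out in which Cd44 was called. In the rest the limma adjusted p ran from 0.102 to 0.270.

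The probe set 1434376_at of Cd44 read 4.90, 4.52, 5.15, 4.85 and 4.50 on OVE26 1 to 5 and 2.93, 4.36, 3.15 and 3.01 on FVB 1 to 4. Its groups did not overlap, a pattern shared by 2.67% of all probe sets, but FVB 2 stood near the OVE26 arrays and the other 3 FVB readings were below the 25th percentile. The difference was 1.42 (SE 0.29, limma over all probe sets, adjusted p = 0.0846). Another Cd44 probe set, 1423760_at, read 3.14, 3.10, 3.92, 4.33 and 4.60 on OVE26 1 to 5 and 1.54, 2.47, 2.79 and 2.61 on FVB 1 to 4. All 4 FVB and 2 OVE26 readings were below the 25th percentile, and the difference was 1.47 (limma over all probe sets, adjusted p = 0.133). The last, 1443265_at, differed by 0.06 (95% interval -0.22 to 0.34, limma over all probe sets, adjusted p = 0.883), with readings from 3.41 to 3.87 on all 9 arrays. FVB 2 was also the only FVB array with Xist above the Y-linked genes. Within its class the difference of the brightest Cd44 probe set was 0.24, and within the other class it was 0.97.

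**Figure D2:**
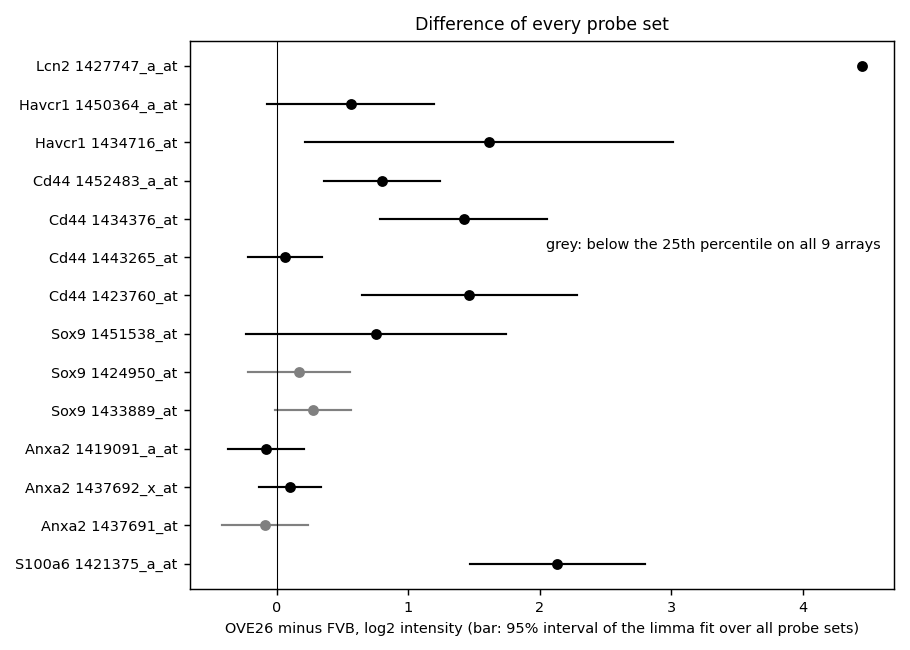
Difference in log2 intensity (OVE26 minus FVB) of each of the 14 probe sets, with the 95% interval of the limma fit over all probe sets as a bar, none for Lcn2, and in grey those below the 25th percentile on all 9 arrays. The intervals of S100a6, Havcr1 1434716_at and 3 Cd44 probe sets lie above 0 before adjustment, and those of Anxa2 straddle 0.

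Sox9, the repair transcription factor (gene at chr11:112782210-112787757), was high on a single array. The probe set 1451538_at read 5.20, 5.16, 5.27, 7.45 and 5.16 on OVE26 1 to 5 and 4.65, 5.13, 4.92 and 4.88 on FVB 1 to 4. OVE26 4 stood far above every other array. The other OVE26 arrays, from 5.16 to 5.27, lay just above the highest FVB array (5.13). The groups thus did not overlap, as for 3.64% of all genes. The difference was 0.75 (SE 0.44, limma, adjusted p = 0.468), or 0.30 without OVE26 4. Both other Sox9 probe sets were below the 25th percentile on all 9 arrays, from 1.63 to 2.91, so no level can be read from them. OVE26 4 was the highest OVE26 array for 1 of these, at 2.91.

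Anxa2, the membrane-binding annexin (gene at chr9:69453683-69491792), did not separate the groups. Its bright probe set 1419091_a_at read 11.32, 11.24, 10.98, 11.23 and 11.24 on OVE26 1 to 5 and 11.25, 11.14, 11.60 and 11.14 on FVB 1 to 4. The ranges overlapped, and the difference of -0.08 had a 95% interval from -0.36 to 0.20 (limma, adjusted p = 0.834). A change as large as that of S100a6 lies outside this interval. Of the others, 1437692_x_at, of a class whose probes may be shared with other sequences, differed by 0.10 (limma over all probe sets, adjusted p = 0.749), and 1437691_at was below the 25th percentile on all 9 arrays.

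Other genes known to rise in injured kidney epithelium were followed as a list of 46 measured genes. Of these 6 rose, 0 fell and 40 did not pass by limma (27 of the 46 at an unadjusted p under 0.05). The median difference was 0.62, against 0.01 over all genes, where 0.473% were called higher. Of the 46 differences 40 were positive, against 52.6% over all genes. The list was composed with earlier results of these data known. The 6 were 4 keratins of simple epithelium (Krt8, Krt18, Krt19 and Krt7), the galactose-binding lectin Lgals3 and the secreted chaperone Clu.

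Lgals3 (galectin 3) read 10.16 to 10.94 on the OVE26 arrays and 8.51 to 8.93 on the FVB arrays. It rose by 1.95 (SE 0.16, limma, adjusted p = 0.00618), with a narrow spread in both groups. Clu rose by 3.13 (SE 0.34, limma, adjusted p = 0.00978), and its 4 probe sets ran from 2.89 to 3.15. Krt8 rose by 2.32 (adjusted p = 0.00978), Krt18 by 2.75 (adjusted p = 0.0283), Krt19 by 1.30 (adjusted p = 0.0367) and Krt7 by 1.07 (adjusted p = 0.0481). OVE26 4 held the highest reading for all 6 of these genes, as it did for Lcn2 and S100a6.

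Lgals3 and Clu were called in each of the 9 fits with 1 array left out (limma, adjusted p up to 0.0365 and 0.0398). Krt8 was lost without FVB 3 (adjusted p = 0.0540). Krt18 was lost without OVE26 3 (0.0715), OVE26 5 (0.0562), FVB 1 (0.101), FVB 3 (0.0963) or FVB 4 (0.0954). For Krt19 the call ended in the same 5 fits (adjusted p from 0.0634 to 0.134) and without OVE26 2 (0.0575). Krt7 was called in 1 of these fits, that without FVB 2 (adjusted p = 0.0257), and missed the threshold in the other 8 (0.0562 to 0.155).

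**Figure D3:**
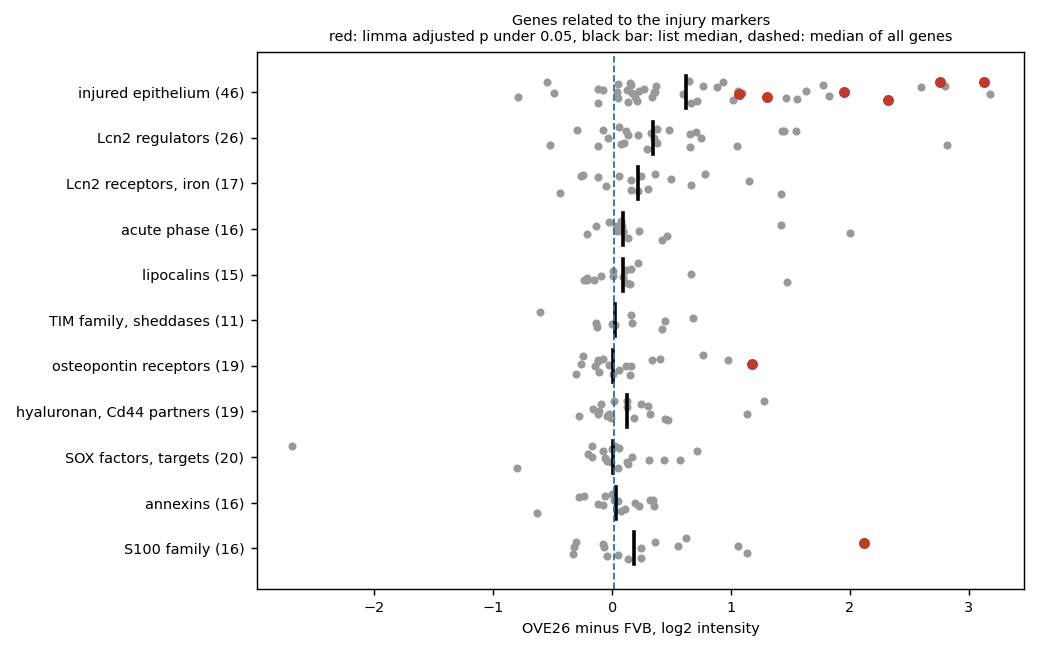
Difference in log2 intensity (OVE26 minus FVB) of every measured gene on 11 lists related to the markers, with genes called by limma in red, the median of each list as a black bar and the median of all genes (0.01) dashed. The injured epithelium list has its median at 0.62 and holds 6 of the 8 genes called, whereas the TIM, osteopontin receptor, SOX and annexin lists have medians from 0.00 to 0.03.

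Cytokines, receptors and factors known to drive Lcn2 were not called. Of 26 such genes 0 rose and 0 fell by limma (10 at an unadjusted p under 0.05), and 21 of 26 differences were positive, with a median of 0.34. Over all genes 52.6% were positive. Without OVE26 4, the array with the highest Lcn2, the median of the list was 0.19. Stat3, the transcription factor of interleukin 6 signalling, differed by 0.75 (adjusted p = 0.0523), the cytokine gene Tnf by 0.70 (adjusted p = 0.0814) and the oncostatin M receptor Osmr by 1.05 (adjusted p = 0.101). Cebpd, a C/EBP factor, read 6.94, 7.14, 8.43, 9.32 and 7.31 on OVE26 1 to 5 and 6.28 to 6.54 on the FVB arrays. Its difference was 1.45 (SE 0.44, adjusted p = 0.160). OVE26 4 and OVE26 3 were the highest arrays for Cebpd and also for Lcn2. Osmr was likewise highest on OVE26 3 (7.61) and OVE26 4 (7.58). Stat3 (10.13) and Tnf (4.47) were instead highest on OVE26 1, the OVE26 array with the lowest Lcn2. What part these factors have in the Lcn2 values was not tested.

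Lcn2 receptors and iron genes gave 0 calls among 17 by limma (5 at an unadjusted p under 0.05), with a median of 0.22, or 0.13 without OVE26 3. The iron importer Slc11a2 differed by 0.78 (adjusted p = 0.0805), where 2 of its 4 probe sets ran the other way. Heme oxygenase Hmox1 differed by 0.66 (adjusted p = 0.103), the iron exporter Slc40a1 by 1.15 (adjusted p = 0.118) and the ferroxidase Cp by 1.42 (adjusted p = 0.288).

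Among 16 acute phase genes 0 were called by limma (2 at an unadjusted p under 0.05), with a median of 0.09, and 7 had means below the 25th percentile in both groups. Only 3 of the 16 were not under the 40th percentile of mean level, and the median of those 3 was 1.42. One of them, Serpina3n, passes this limit (5.03) through the OVE26 arrays, since its FVB mean (4.46) lies under it. That median is thus partly set by the limit itself. Serpina3n, a serine protease inhibitor, read 8.95 on OVE26 4, 7.41 on OVE26 3 and 5.17 to 5.56 on the other OVE26 arrays, against 4.03 to 5.11 on the FVB arrays. The difference was 2.00 (SE 0.74, adjusted p = 0.238). Of the other 15 measured lipocalin family genes 0 were called by limma (0 at an unadjusted p under 0.05), with a median of 0.09, or 0.66 over the 3 not under the 40th percentile. The major urinary protein gene Mup3, whose near-identical copies may share its probes, differed by -0.21 (adjusted p = 0.356). The apolipoprotein gene Apom differed by 0.66 (adjusted p = 0.427), Ptgds, a prostaglandin synthase of this family, by 1.47 (adjusted p = 0.435), and Apod by 0.22 (adjusted p = 0.448).

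For the Havcr1 family, 0 of 11 paralogs, phosphatidylserine-binding partners and sheddases were called by limma (1 at an unadjusted p under 0.05), with a median of 0.02. Gas6, a bridge between phosphatidylserine and receptor kinases, differed by 0.68 (adjusted p = 0.208) and the paralog Timd2 by -0.61 (adjusted p = 0.371). Of 19 osteopontin receptors, cleaving enzymes and paralogs 1 rose by limma (4 at an unadjusted p under 0.05) and the median was 0.00. This was the matrix metalloproteinase Mmp2, up by 1.18 (SE 0.17, adjusted p = 0.0244). Mmp2 read 9.08 to 9.95 on the OVE26 arrays and 8.14 to 8.40 on the FVB arrays. Its call was lost without OVE26 3 (0.0649), FVB 1 (0.0976), FVB 3 (0.0885) or FVB 4 (0.0838).

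Of 19 genes of hyaluronan handling and Cd44 partners 0 were called by limma (3 at an unadjusted p under 0.05), with a median of 0.12. The invariant chain Cd74, a partner of Cd44 in cytokine signalling that is also made by macrophages, differed by 1.28 (adjusted p = 0.0516), and its ligand Mif by 1.13 (adjusted p = 0.0578), with 1 of 3 Mif probe sets at 0.00. Radixin, Rdx, which ties Cd44 to actin, was lower on every OVE26 array at a difference of -0.28 (adjusted p = 0.208). The share of all genes that separate downward was not counted.

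In the list of SOX factors and Sox9 targets 0 of 20 were called by limma (2 at an unadjusted p under 0.05), with a median of 0.01, or 0.13 over the 9 not under the 40th percentile. Sox8, of the same subgroup as Sox9, read 4.50, 4.68, 2.80, 3.08 and 3.26 on OVE26 1 to 5 and 6.79, 4.83, 6.90 and 6.91 on FVB 1 to 4. All OVE26 arrays lay below all FVB arrays, with FVB 2 nearest to them, and the share of all genes doing so was not counted. The difference was -2.69 (SE 0.53, adjusted p = 0.0570). Sox4 differed by 0.71 (adjusted p = 0.175).

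Annexins and plasminogen genes gave 0 calls of 16 by limma (4 at an unadjusted p under 0.05), with a median of 0.03. Anxa6 differed by 0.32 (adjusted p = 0.241), Anxa1, which binds formyl peptide receptors, by 0.23 (adjusted p = 0.307) and the plasminogen activator Plat by -0.24 (adjusted p = 0.284), with its other probe set at 0.19. Of 16 other S100 genes and S100a6 partners 1 rose by limma (5 at an unadjusted p under 0.05), and the median was 0.19. This was S100g, the calbindin of calcium-transporting epithelium, which read 8.63 to 10.37 on the OVE26 arrays and 6.54 to 7.77 on the FVB arrays. It rose by 2.12 (SE 0.38, adjusted p = 0.0444). S100g was lost in 6 of 9 fits with 1 array left out, those without OVE26 3 (0.101), OVE26 4 (0.0800), OVE26 5 (0.0614), FVB 1 (0.145), FVB 3 (0.131) or FVB 4 (0.0932). Over the 11 lists 8 of 206 genes rose (3.88%) and 0 fell. With a sex covariate 3 of the 8 passed, Lgals3 (adjusted p = 0.0151), Clu (0.0249) and Krt8 (0.0269).

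The pattern of Lcn2 over the 9 arrays was compared with that of all genes of mean level not under the 40th percentile. Likeness was the root mean square difference of log2 values, each gene centred on its own mean, so that a gene must change as much as Lcn2 to be near it. The 8 nearest were Rrm2, the small subunit of ribonucleotide reductase (0.78), the pyruvate dehydrogenase kinase Pdk4 (0.79), the retinaldehyde dehydrogenase Aldh1a1 (0.89), Clu (0.89), Krt18 (0.98), the zinc finger factor Egr2 (0.99), the proton pump subunit Atp6v0d2 (0.99) and the chaperone Scg5 (1.05). Lcn2, Rrm2, Aldh1a1 and Scg5 pass this limit on level through the OVE26 arrays, since their FVB means lie under it, and 3 of 4 FVB readings of Rrm2, as of Lcn2, were below the 25th percentile, where readings have no firm order. Among the panel, S100a6 was nearest at 1.28 and Anxa2 farthest at 2.37. When each gene was first scaled to an SD of 1, the 8 nearest were other genes, with 0 shared, led by the protease Prss23 (0.17), Lgals3 (0.17) and Perp (0.19), a desmosome gene and p53 target. Likeness was not tested, since Lcn2 was picked for its rise.

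**Figure D4:**
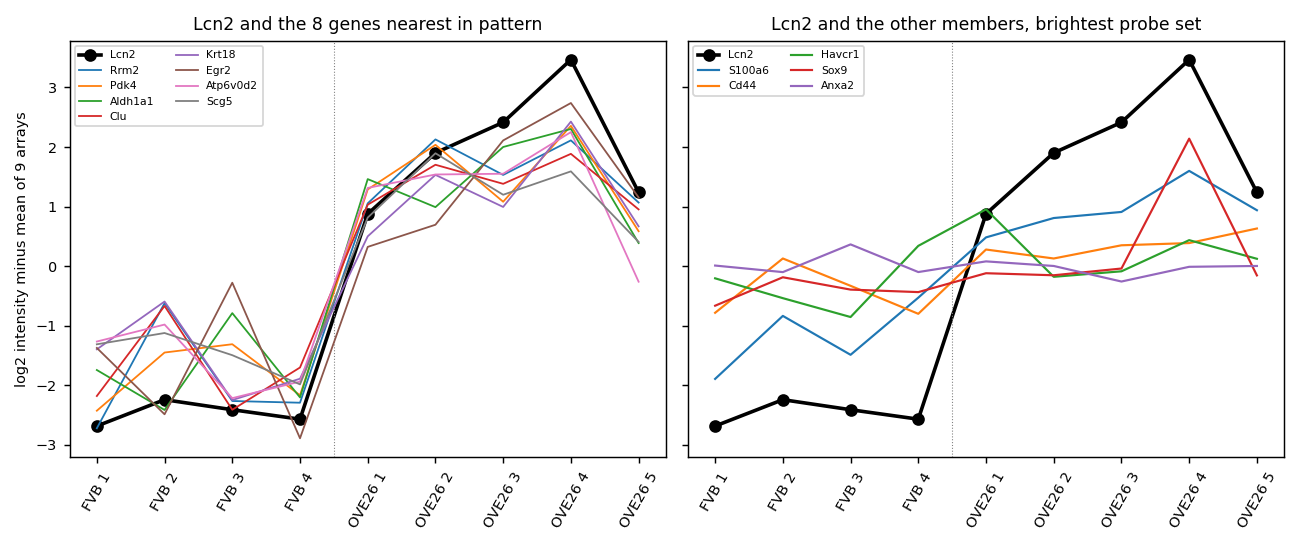
Log2 intensity minus the mean of the 9 arrays, for Lcn2 in black with its 8 nearest genes (left) and with the brightest probe set of the other members (right), by array. Lcn2 steps up between the FVB and OVE26 arrays, as do its nearest genes, which were chosen for that likeness. S100a6 steps less, Sox9 rises on OVE26 4 and Anxa2 stays level.

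Genes nearest to the other members differed from gene to gene. S100a6 lay near the matrix Gla protein Mgp (0.31), Krt8 (0.33) and Lgals3 (0.35). These were higher on every OVE26 array, as S100a6 and 3.64% of all genes were, and were chosen for likeness to S100a6. Cd44 was near Rnf149 (0.15), Pnpla7 (0.17) and the mitochondrial thiolase Acaa2 (0.17). Havcr1 was near the biliverdin reductase Blvra (0.26), the fatty acid-binding protein Fabp5 (0.28) and Abhd14b (0.30). Around Sox9 stood Tmem252 (0.21), the clock gene Cry2 (0.26) and Depp1 (0.26), which read 8.68, 11.35 and 8.55 on OVE26 4. Those were their highest readings of the 9 arrays, which follows from their choice by likeness to Sox9. Around Anxa2 stood Mvk, Suox and Ubtf (each 0.06).

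Markers of other cells that make these genes were read on the same arrays. Since these are sorted pools, fewer cells of a type and less RNA per cell cannot be told apart. Of 15 other markers of neutrophils, which store Lcn2, 8, Mpo, Elane, Ngp, Cxcr2, Mmp8, Cd177, Ctsg and Stfa3, were below the 25th percentile on all 9 arrays. By limma 0 of the 15 were called (0 at an unadjusted p under 0.05). Their summed intensity ran from 161 to 264 units in OVE26 and from 162 to 172 in FVB arrays. S100a9 read 7.01 on OVE26 3 and 6.55 on OVE26 4, against 4.25 to 5.32 on the other OVE26 arrays and 4.61 to 5.48 on the FVB arrays. S100a8 was at 4.73 and 4.79 on OVE26 3 and 4, the arrays with the highest Lcn2, and at most 3.85 elsewhere. The list's other markers with readings above the 25th percentile varied. Ltf was lowest on OVE26 3 and 4 (3.49 and 3.57, against 3.72 to 4.18 elsewhere). Camp (4.06 to 4.45) and Csf3r (3.81 to 4.29) were highest on FVB 1. Mmp9 was highest on OVE26 3 (4.15), and Prtn3 was lowest there (2.95). What part neutrophils have in the Lcn2 values was not tested.

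For 25 genes of macrophages, a cell type that can make Cd44, the median difference was 0.61, 0 were called by limma (11 at an unadjusted p under 0.05), and summed intensity ran from 1016 to 3743 units in OVE26 and from 1054 to 1430 in FVB arrays, which overlap. Their defining marker Adgre1 was below the 25th percentile on 4 of 5 OVE26 arrays and on all 4 FVB arrays, and Itgam on all 9. Adgre1 was still higher on every OVE26 array (difference 0.61, limma, adjusted p = 0.0927). Ptprc, also on this list, was above that percentile on all 9 arrays, with 6.53 on OVE26 3. It differed by 0.82 (limma, adjusted p = 0.323). For 8 of the 25 genes each OVE26 array was above each FVB array, against 3.64% of all genes. Among 27 genes of the distal nephron, from the loop to the collecting duct, 3 rose by limma (18 at an unadjusted p under 0.05). Of their differences 26 were positive, with a median of 1.25. Sums ran from 9979 to 20311 units in OVE26 and from 4447 to 16526 in FVB arrays. Of 11 parietal epithelial markers 3 rose by limma, all keratins named above (7 at an unadjusted p under 0.05). The median was 1.30, with sums from 1840 to 4541 units in OVE26 and 1191 to 1742 in FVB arrays. The part of these cell types in the Lcn2, S100a6, Cd44, Lgals3, Clu and keratin values was not tested. Of 21 podocyte markers 1 fell by limma (7 at an unadjusted p under 0.05) and the median was -0.23. Only 1 of the 21 differences was positive, against 52.6% over all genes. The sums overlapped between the groups.

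**Figure D5:**
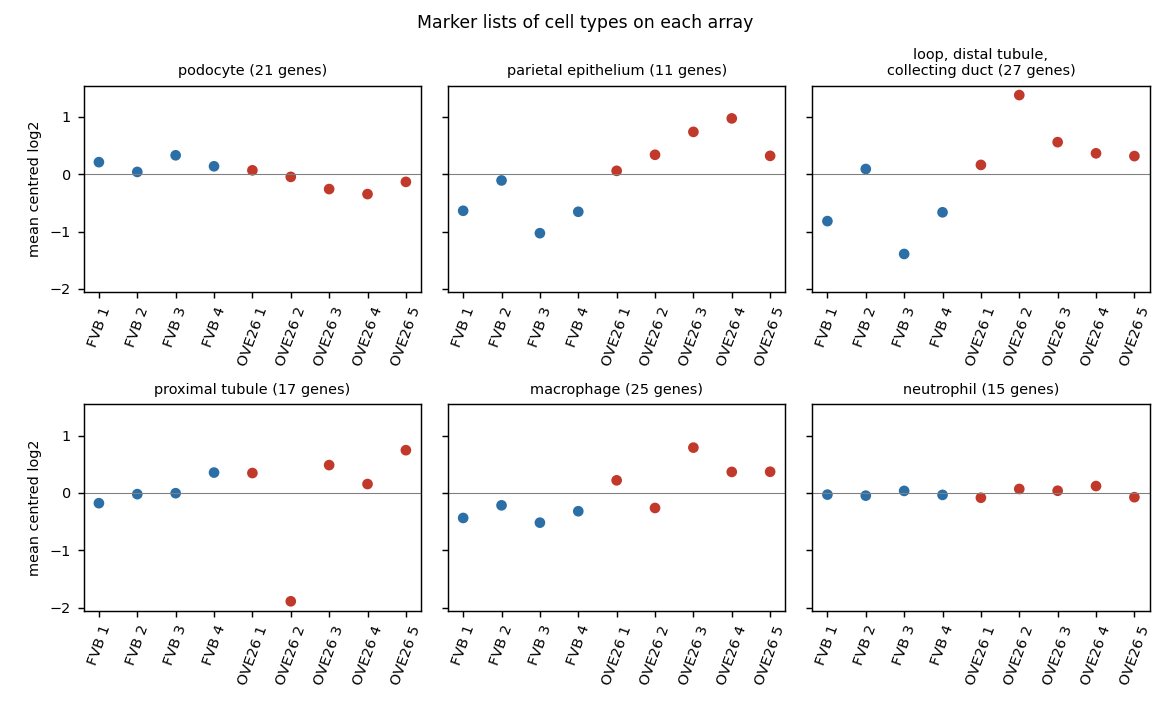
Mean centred log2 intensity of 6 marker lists on each FVB (blue) and OVE26 (red) array, 1 point an array. Every OVE26 array is above every FVB array for the parietal and the distal list, the neutrophil list stays near 0 on all 9 arrays, and the proximal list is lowest on OVE26 2 (-1.89).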

How the data were processed

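The authors deposited 1 table of probe set intensities for 9 arrays of biotin-labelled amplified RNA, processed with RMA and Partek per the submitters' processing notes. Their versions and settings are not known here. The range of the deposited intensity values is that of a linear scale, so log2 was computed from them. After removal of 64 control probe sets, 45037 remained. The platform annotation gave 1 symbol for 34945, several for 932 and none for 9160. The brightest probe set stood for each of 18193 genes.

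Group differences came from limma 3.58.1 under R 4.3.3 (lmFit, eBayes, group as the only term, prior degrees of freedom 2.94, 2-sided) with Benjamini-Hochberg adjustment over all genes, or over all probe sets where stated. The fit was tested on simulated data. Members and lists were chosen with earlier results of these data known. Of 412 list genes 377 were measured. Named were called genes of a list, otherwise up to 4 with the smallest p, and the nearest genes in pattern. The arrays are separate mice per the labels, and their number limits the precision. Same-numbered mice were not treated as paired. Their deviations correlated at r from -0.21 to 0.13 over genes. Mice of unlike number gave r from -0.28 to 0.23, so this cannot exclude pairing. Alternatives were other probe set summaries, normalizations, variance models, thresholds, a sex covariate, a replicate block and leaving out arrays.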

Additional observations from a re-analysis of the deposited data

Results flagged for a closer look

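In 4 of the 28 sets of readings (14 probe sets in 2 groups) 1 array stood apart from the rest of its group by Dixon's test, where chance gives about 1 in 20. For Cd44 1434376_at this was FVB 2 at 4.36, with the next FVB array at 3.15. For Sox9 1451538_at it was OVE26 4 at 7.45, with the next OVE26 array at 5.27. OVE26 4 also stood apart for Sox9 1424950_at, at 2.91 against 2.42, where all arrays were below the 25th percentile. For Anxa2 1419091_a_at it was OVE26 3, low at 10.98 against 11.23.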

How the results depend on the processing

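The Lcn2 difference ran from 3.12 to 4.73 over 21 alternatives, the lowest with 16 added to the intensity before log2. Lcn2 was chosen for its rise, so its unchanged direction is no support for that rise. S100a6, Cd44, Havcr1 and Sox9 kept their directions. Anxa2 turned to 0.026 without FVB 3 (limma, adjusted p = 0.966), within a range of -0.13 to 0.026 without 1 array. Among the markers tested, 1 was called. That count was 2 with probe sets averaged per gene or with array weights, 0 with the sex covariate, without moderation, at a threshold of 0.01, or without OVE26 2 and 4 together (chosen after the data were seen), and 0 to 2 without 1 array. The added call was Cd44 (0.94, adjusted p = 0.0338, and 0.93, adjusted p = 0.0428). Of 13 probe sets other than Lcn2, 1 was called. With array weights or at a threshold of 0.1 there were 2, with the replicate block, the sex covariate, no moderation, a threshold of 0.01 or without OVE26 2 and 4 there were 0, and 0 to 3 without 1 array. Related genes called higher (8) numbered 5 with all probe sets singly or 16 added, 21 with array weights, 2 with the replicate block, 3 with the sex covariate or at 0.01, 0 without moderation, 16 at 0.1, and 2 to 12 without 1 array. Related genes called lower (0) became 1 with a variance trend, array weights or a threshold of 0.1, and 0 to 1 without 1 array. Over all genes 86 were higher. The count was 284 with array weights, 19 with the replicate block, 33 with the sex covariate, 0 without moderation (2518 in either direction at an unadjusted p under 0.05), 14 at 0.01, 267 at 0.1, and 8 to 285 without 1 array. Those lower (24) were 38 without genes below the 40th percentile, 43 with 16 added, 51 with a variance trend, 112 with array weights, 0 with the replicate block (930 lower at an unadjusted p under 0.05), 8 with the sex covariate, 0 without moderation (1080 unadjusted), 1 at 0.01, 108 at 0.1, and 0 to 82 without 1 array (0 without FVB 3, 822 unadjusted). Without genes below the 40th percentile, the median difference moved for acute phase genes (1.42), lipocalins (0.66) and SOX factors (0.13). The acute phase value includes Serpina3n, which passes that limit through the OVE26 arrays. With the replicate block S100a6 was at 2.14 (adjusted p = 0.0404). The cause of these shifts was not tested.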

Other observations

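Immediate early genes, which respond to growth factors and to tissue dissociation, were not followed as a list in the comparisons above. Of 16 measured 0 were called by limma (8 at an unadjusted p under 0.05, where 15.1% of all genes were), and the median difference was 0.44. Egr2, named above among the 8 genes nearest to Lcn2 in pattern, differed by 3.16 (limma, adjusted p = 0.0542). The mean centred log2 value of the list was 0.84 on OVE26 4 and 0.44 on OVE26 3, the arrays with the highest Lcn2, and from -0.68 to 0.21 on the other arrays.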
